A study of Mus musculus with 64 samples.

Results

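The 2 Polycomb histone marks, H3K27me3 and H2AK119Ub, were compared on the autosomes of naive splenic B cells. The comparison rests on the 7 unstimulated (0 h) peak lists of the marks, 3 for H3K27me3 and 4 for H2AK119Ub, out of 61 lists in the series. The names of the lists carry Cast, taken here as peaks of reads from the paternal (Cast) allele. A region of a mark was a base covered in at least 2 of its libraries, and a gene was assigned to a mark when its body, with 2 kb added on each side, met such a region. Of 33069 autosomal genes, 1784 (5.39%) had both marks, 2161 (6.53%) had H3K27me3 alone, 1428 (4.32%) had H2AK119Ub alone and 27696 had neither.

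The cells were CD23+ B cells from the spleens of female F1 mice, bred from C57BL/6 mothers with a heterozygous Xist deletion and M. m. castaneous fathers, so every sample shares this hybrid genotype and skewed X inactivation. Naive cells had no treatment. Stimulated cells had 1 µM CpG, a DNA ligand of Toll-like receptor 9, for 12 or 24 h. These libraries enter only as samples that were not used to make the classes. The assay was CUT&RUN: a nuclease guided by the antibody releases the chromatin that carries the mark. The label of each replicate calls it biological, but neither the ages nor the animals behind the replicate numbers are given in the labels.

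Polycomb proteins keep developmental genes silent in cells that do not need them. Polycomb repressive complex 2, with the subunits Ezh2 and Suz12, trimethylates lysine 27 of histone H3 (H3K27me3). Polycomb repressive complex 1, built on the ligases Ring1A and Ring1B, ubiquitinates a lysine near the end of histone H2A (H2AK119Ub). Each complex has forms that can bind the mark of the other, so the marks often share targets, above all at CpG-rich promoters, although H2AK119Ub is also laid down by complexes that are recruited without H3K27me3. Acetylation of the same lysine (H3K27ac) marks active promoters and enhancers and cannot sit on a tail that carries H3K27me3.

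The depth of the libraries is unknown. The lowest peak maximum kept in a list was 9 to 10 units of signal in the naive H2AK119Ub lists. In the naive H3K27me3 lists it was 2.93 to 6.90. These minima are whole numbers in the naive H2AK119Ub lists and fractions in the naive H3K27me3 lists, so their units may not be alike. They do not show which mark had the stricter threshold. Of 9 B cell markers, 8 had an H3K27ac peak in at least 2 of the 3 naive H3K27ac libraries, and none was without a peak. The NK cell (2), erythroid (4) and plasma cell (3) markers had no H3K27ac peak, and 5 of 6 myeloid markers had none. Of 7 T cell markers, 5 were at 0 (Cd3e, Cd3g, Cd4, Cd8a and Bcl11b), while Cd3d and Lck had a peak in at least 2 libraries. The covered percents summed over the list were 220 to 660 for B cell markers and 0 to 72.4 for T cell markers. In such bulk samples, fewer cells with a mark and less of the mark per cell cannot be told apart.

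The marks covered similar lengths of the autosomes, but in partly different places. H3K27me3 peaks covered 29.7, 31.8 and 94.4 Mb in replicates 1 to 3, and H2AK119Ub peaks covered 34.8, 58.5, 27.7 and 35.4 Mb in replicates 1 to 4. Replicate 3 of H3K27me3 was the longest list, and the other libraries overlapped in length. The mean log2 difference in length (H3K27me3 minus H2AK119Ub) was 0.25 (two-sided exact permutation p = 0.743, n = 3 and 4, where the smallest p possible is 0.0571). Its sign turned without H3K27me3 replicate 3, to -0.29.

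Libraries of the same mark resembled each other more than libraries of different marks. The Jaccard index, the share of covered bases that both lists of a pair hold, ranged from 0.367 to 0.478 over the 6 pairs of H2AK119Ub libraries and from 0.253 to 0.297 over the 3 pairs of H3K27me3 libraries. Between the marks it ranged from 0.143 to 0.241 over 12 pairs, below every pair within a mark. The mean within marks exceeded the mean between marks by 0.193 (one-sided exact permutation p = 0.0286 over 35 assignments, n = 3 and 4, the smallest p possible). With any library left out the design cannot reach 0.05, and the difference was then 0.155 to 0.233.

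**Figure D1:**
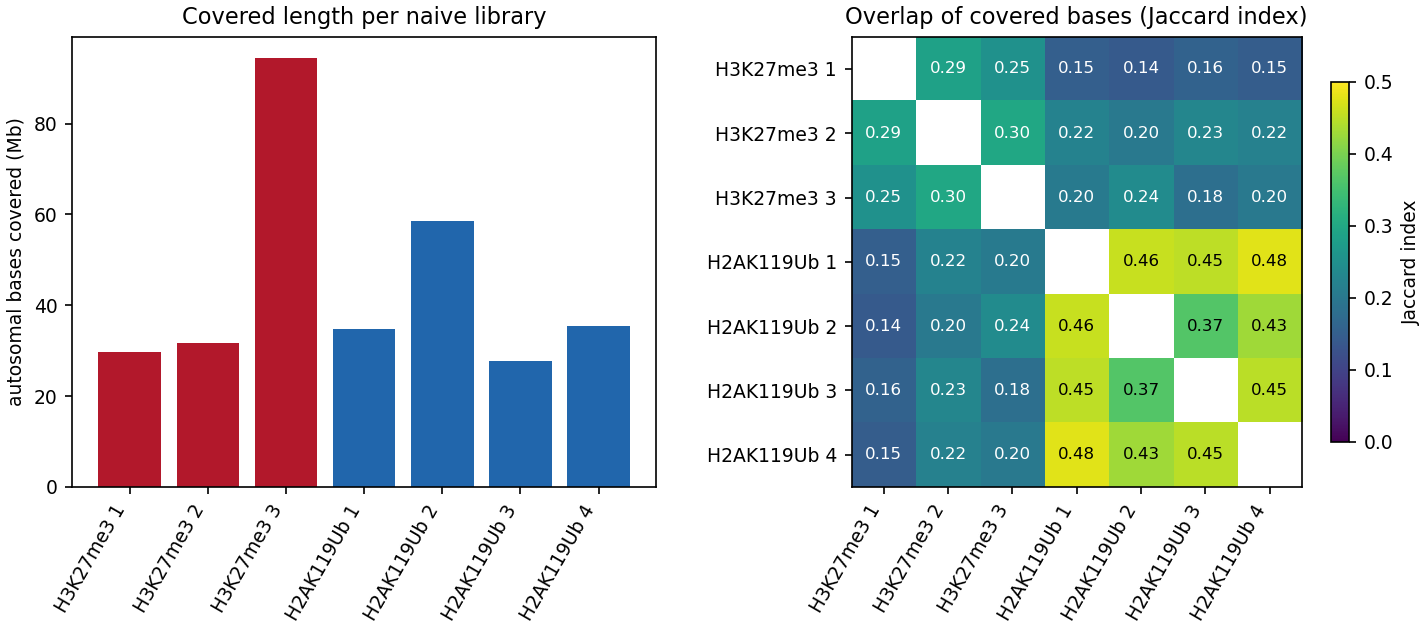
Autosomal bases covered by peaks (left, in Mb, 1 bar per library) and Jaccard index of covered bases for each pair of libraries (right) in the 3 H3K27me3 and 4 H2AK119Ub naive libraries. H3K27me3 replicate 3 covered 94.4 Mb and the other libraries 27.7 to 58.5 Mb, and the pairs within H2AK119Ub had the highest indices (0.367 to 0.478).

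At the level of regions, 4873 stretches held H3K27me3 (40.9 Mb, median length 7.05 kb) and 3220 held H2AK119Ub (41.6 Mb, median 10.5 kb). Of the H3K27me3 regions 37.2% met an H2AK119Ub region, and of the H2AK119Ub regions 50.3% met an H3K27me3 region. In bases, 16.1 Mb carried both marks, which is 39.3% of the H3K27me3 bases and 38.6% of the H2AK119Ub bases. H3K27me3 alone lay on 24.8 Mb and H2AK119Ub alone on 25.5 Mb. All 3 kinds of base were near gene starts more often than the genome at large. Within 2 kb of an annotated start lay 15.1% of the bases with both marks, 15.3% of those with H3K27me3 alone and 12.6% of those with H2AK119Ub alone, against 4.18% of all autosomal bases. The share inside gene bodies was 47.5%, 51.2% and 45.3%, beside 46.9% of all autosomal bases.

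The single-mark classes differed in how often 1 library held the other mark. Of the 2161 genes with H3K27me3 alone, 1815 had no H2AK119Ub peak in any of the 4 libraries, 338 had one in a single library and 8 had peaks in several libraries that did not overlap. Of the 1428 genes with H2AK119Ub alone, 739 had no H3K27me3 peak in any of the 3 libraries, 679 had one in a single library and 10 had peaks that did not overlap. H3K27me3 replicate 3, the longest list, had a peak on 46.4% of the H2AK119Ub-alone genes, while replicates 1 and 2 had one on 1.61% and 0.980%. Without that replicate the counts became 1086 genes with both marks and 830 with H3K27me3 alone. Without H3K27me3 replicate 1, 1191 genes had H3K27me3 alone, and without H2AK119Ub replicate 2, 916 had H2AK119Ub alone.

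Promoters of 6 genes are shown to let the sequence be read beside the marks: Ch25h and Hoxa9 for both marks, Nkx2-9 and Atoh1 for H3K27me3 alone, and H2bc14 and Pelo for H2AK119Ub alone. Each is the RefSeq promoter window (GRCm38.p6, the assembly behind mm10), from 250 bases before to 50 bases after the gene start, on the gene's strand, with CpG dinucleotides in capitals. The Ch25h window lies at chr19:34475099-34475398 (minus strand, 10 CpG), the Hoxa9 window at chr6:52227321-52227620 (minus, 4 CpG), the Nkx2-9 window at chr12:56613235-56613534 (minus, 15 CpG), the Atoh1 window at chr6:64728875-64729174 (plus, 20 CpG), the H2bc14 window at chr13:21721794-21722093 (plus, 9 CpG) and the Pelo window at chr13:115090109-115090408 (minus, 36 CpG). The windows of Ch25h and Hoxa9 were covered whole in all 3 H3K27me3 and all 4 H2AK119Ub libraries. Those of Nkx2-9 and Atoh1 were covered whole in 3 H3K27me3 and 0 H2AK119Ub libraries, and those of H2bc14 and Pelo in 0 and 4.
Ch25h: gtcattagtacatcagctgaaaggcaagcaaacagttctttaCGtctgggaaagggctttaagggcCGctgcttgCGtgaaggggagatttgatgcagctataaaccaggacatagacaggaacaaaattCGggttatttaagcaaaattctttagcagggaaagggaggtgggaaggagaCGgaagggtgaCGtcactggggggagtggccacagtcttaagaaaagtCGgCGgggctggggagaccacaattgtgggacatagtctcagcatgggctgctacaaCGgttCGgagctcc
Hoxa9: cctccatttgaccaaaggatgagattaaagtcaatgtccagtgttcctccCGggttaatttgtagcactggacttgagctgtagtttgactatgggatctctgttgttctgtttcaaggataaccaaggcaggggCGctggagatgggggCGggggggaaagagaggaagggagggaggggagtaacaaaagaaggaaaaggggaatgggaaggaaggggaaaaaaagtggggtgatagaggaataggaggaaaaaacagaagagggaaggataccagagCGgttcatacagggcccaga
Nkx2-9: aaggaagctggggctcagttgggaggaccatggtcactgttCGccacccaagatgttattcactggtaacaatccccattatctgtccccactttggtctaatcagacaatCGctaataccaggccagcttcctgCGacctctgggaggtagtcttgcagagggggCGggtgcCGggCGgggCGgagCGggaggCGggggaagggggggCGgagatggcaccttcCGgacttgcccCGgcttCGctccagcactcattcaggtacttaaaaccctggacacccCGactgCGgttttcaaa
Atoh1: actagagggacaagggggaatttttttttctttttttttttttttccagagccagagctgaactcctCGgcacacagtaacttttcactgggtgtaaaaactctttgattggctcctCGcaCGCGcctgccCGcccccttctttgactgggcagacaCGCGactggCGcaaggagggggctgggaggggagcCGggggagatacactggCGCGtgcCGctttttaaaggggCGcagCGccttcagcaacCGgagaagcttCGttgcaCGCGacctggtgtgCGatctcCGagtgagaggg
H2bc14: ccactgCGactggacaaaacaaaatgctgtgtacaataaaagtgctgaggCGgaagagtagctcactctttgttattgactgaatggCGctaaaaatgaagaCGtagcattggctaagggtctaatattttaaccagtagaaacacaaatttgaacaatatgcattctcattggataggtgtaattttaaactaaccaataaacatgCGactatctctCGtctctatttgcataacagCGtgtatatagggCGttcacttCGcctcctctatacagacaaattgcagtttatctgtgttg
Pelo: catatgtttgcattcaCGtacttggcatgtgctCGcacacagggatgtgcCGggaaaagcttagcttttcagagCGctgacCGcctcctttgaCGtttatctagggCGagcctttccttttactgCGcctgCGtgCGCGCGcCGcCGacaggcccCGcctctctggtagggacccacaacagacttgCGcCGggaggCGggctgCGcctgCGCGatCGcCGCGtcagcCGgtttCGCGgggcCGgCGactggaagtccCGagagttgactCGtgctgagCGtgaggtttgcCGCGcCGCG

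All 3 marked classes had more CpG dinucleotides at the start than unmarked genes. Over protein-coding genes with a promoter sequence, the median number of CG dinucleotides (a palindrome, the same on both strands) in the 300 bases was 17 for both marks (972 genes), 15 for H3K27me3 alone (1154), 19 for H2AK119Ub alone (814) and 13 for neither (13516). At least 10 of them stood in 70.0%, 64.4%, 72.2% and 55.3% of the windows, and in 57.6% of the windows of all protein-coding genes. At least 1 CG stood in 95.0% of all windows. These shares are descriptions, and genes that share a promoter or a cluster are not independent.

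Coverage of each gene by the marks was compared with limma over the 5753 genes that had a peak in at least 2 of the 7 libraries. The measure is the percent of the gene region, the body with 2 kb each side, that peaks cover. H3K27me3 covered more than H2AK119Ub at 496 genes (8.62% of those tested) and H2AK119Ub covered more at 98 (1.70%), at a Benjamini-Hochberg adjusted limma p under 0.05. In all of these calls the 3 and 4 libraries did not overlap. The median difference over all genes tested was 2.35 percentage points towards H3K27me3. A gene with a single mark passed the filter through the libraries in which it is high, so the directions of the calls and the medians over tested genes follow in part from the filter. The numbers depended on the filter, on the libraries and on list length: 160 and 44 genes were called when genes with a peak in 1 library were tested too, 345 and 277 genes were called when every list was reduced to its 2078 strongest peaks, 931 and 130 without H3K27me3 replicate 1, 1356 and 123 without replicate 2, 674 and 396 without replicate 3, and 62 to 79 and 22 to 48 when any H2AK119Ub library was left out. Equal peak numbers thus moved the split between the directions towards H2AK119Ub.

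The genes with the largest excess of H3K27me3 were mostly transcription factors and hormones of other tissues. The ranking uses the percent of a region covered, which a short gene can fill with 1 peak. The median region of the H3K27me3-alone class was 24.7 kb, and the gene types were not compared with genes of like length. The same limit holds for the other rankings of genes by coverage. Ascl5, a basic helix-loop-helix factor at chr1:136050804-136051370, was covered 100% in all 3 H3K27me3 libraries and 0% in all 4 H2AK119Ub libraries (difference 100 points, SE 8.92, limma adjusted p = 0.0036). The same values held for Nkx2-9, a homeobox factor of the ventral neural tube at chr12:56611389-56613569, and for Pyy, which encodes the gut hormone peptide YY, at chr11:102106676-102107832. The groups stood apart without any intermediate value at these genes. Sst, which encodes somatostatin, was covered 100% by H3K27me3 in each library and 0%, 14.8%, 0% and 0% by H2AK119Ub, so that H2AK119Ub replicate 2 alone reached it.

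Atoh1 and Atoh7, the helix-loop-helix factors of hair cells and retinal ganglion cells, had H3K27me3 over 73.4%, 100% and 100% and over 88.8%, 100% and 100% of their regions and no H2AK119Ub peak. Neurog1, a proneural factor, was covered 87.3%, 100% and 100% by H3K27me3, and Hmx1, a homeobox factor of the eye and ear, 76.8%, 100% and 100%, both with 0% in every H2AK119Ub library. In these genes replicate 1 of H3K27me3 was the lowest of the 3, and no library of one mark came near the other. Cldn23, a tight-junction claudin, and the olfactory receptor genes Olfr285 and Olfr553 were also among the 12 genes with the largest excess, with mean H3K27me3 coverage of 96.2%, 93.6% and 92.5%. Olfactory receptors belong to a family of close copies, and reads shared between copies make their values uncertain. Over these 12 genes the limma adjusted p ranged from 0.0036 to 0.00545. The calls at Ascl5, Atoh7, Atoh1 and Olfr285 were lost with equal peak numbers.

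In the other direction, 7 of the 12 genes with the largest excess of H2AK119Ub were replication-dependent histone genes of chromosome 13, which encode the core histones made in S phase. H2bc14 (chr13:21722044-21722526) was covered 0% in all 3 H3K27me3 libraries and 100% in all 4 H2AK119Ub libraries (difference -100 points, SE 9.22, limma adjusted p = 0.0036). H2bc12 was covered 100%, 100%, 87.4% and 87.1% by H2AK119Ub, H3c10 100%, 100%, 100% and 70.7%, and H4c9 100%, 100%, 72.9% and 52.9%, each with 0% in every H3K27me3 library. H2ac12, H2ac22 and H2ac13 had mean H2AK119Ub coverage of 85.9%, 83.1% and 82.6%. H2bc14, H3c10 and H2ac13 lie within a few kb of each other, as do H2bc12, H2ac12 and H4c9, while H2ac22 stands apart from both groups. The genes are close copies and 1 peak can cover several neighbours, so they are not separate observations.

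The remaining 5 were of several kinds. Pelo, a ribosome rescue factor at chr13:115088355-115090158, repeated the values of H2bc14. H2-D1, a classical MHC class I gene with close copies nearby (chr17:35263094-35267497), was covered 95.9%, 100%, 68.0% and 100% by H2AK119Ub and 0% by H3K27me3 (limma adjusted p = 0.0084). Wnt10a, a Wnt ligand, was covered 76.6%, 100%, 76.8% and 100% by H2AK119Ub and 0%, 0% and 10.7% by H3K27me3. Calhm1, an ion channel gene, had H2AK119Ub over 51.6%, 100%, 100% and 72.6% and no H3K27me3 peak. Gadd45b, a stress-inducible gene, was covered 86.9%, 100%, 100% and 100% by H2AK119Ub and 0.131%, 0% and 51.1% by H3K27me3, and counted as a gene with both marks (limma adjusted p = 0.0211). Its H3K27me3 came from replicate 3 in the main. The call at Gadd45b was lost without any 1 of the H2AK119Ub libraries, at Calhm1 without replicate 2, 3 or 4, and at H2ac22, H2ac13 and H4c9 without replicate 1, 2 or 3.

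The genes most fully covered by both marks were covered in every library. Ch25h, which encodes cholesterol 25-hydroxylase (chr19:34473783-34475148), Mos, a kinase of oocyte meiosis (chr4:3870658-3872105), Wfdc17, a small secreted protein of myeloid cells, and the unnamed gene 4933407O12Rik were covered 100% in all 7 libraries. Hoxa9 (chr6:52223097-52227370) was covered 85.8%, 100% and 100% by H3K27me3 and 100% in each H2AK119Ub library. Lbx2, a homeobox factor, was covered 95.7%, 88.4% and 100% by H3K27me3 and 100%, 100%, 95.0% and 100% by H2AK119Ub. Prss16, a protease of the thymus, lies between histone genes of chromosome 13 and was covered 95.5%, 94.0% and 100% by H3K27me3 and 100% in each H2AK119Ub library. Gfy was covered 87.6%, 100% and 100% by H3K27me3 and 99.9% or more in each H2AK119Ub library.

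Gene lists chosen for Polycomb biology and for B cells fell into the classes in different proportions, as the plot of list shares shows. Of 39 Hox genes, which pattern the body axis, 26 had both marks, 2 had H3K27me3 alone (Hoxb1 and Hoxd1), 8 had H2AK119Ub alone and 3 had neither. None of the 36 Hox genes tested passed the limma threshold (4 had an unadjusted p under 0.05), and their median difference was -12.3 points, beside 2.35 over all genes tested. Of all genes tested, 8.62% (H3K27me3) and 1.70% (H2AK119Ub) passed. The number of Hox genes with a peak was 14, 28 and 36 in the H3K27me3 libraries and 32, 34, 29 and 29 in the H2AK119Ub libraries. H3K27me3 replicate 1 was thus the lowest, and the groups overlapped. The 28 Hox genes with H3K27me3 met 21 regions and the 34 with H2AK119Ub met 19 regions, on 4 chromosomes.

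Homeobox factors outside the Hox clusters and other developmental transcription factors had H3K27me3 alone more often than H2AK119Ub alone. Of 71 homeobox factors, 31 had both marks, 26 had H3K27me3 alone and 2 had H2AK119Ub alone. Otx1, a forebrain factor, and Meox1, a factor of the somites, were the 2. Otx1 was nonetheless covered 89.8% in H3K27me3 replicate 3 and 0% in replicates 1 and 2. Its H2AK119Ub coverage was 41.0%, 77.3%, 7.41% and 40.9%, so the marks overlapped there. By limma, 8 of 59 tested were higher for H3K27me3 and 1 for H2AK119Ub, beside 8.62% and 1.70% of all genes tested, so that the 1 call is about the share over all genes. It was Meox1, covered 0% in each H3K27me3 library and 56.7%, 59.8%, 47.7% and 58.4% by H2AK119Ub (limma adjusted p = 0.0145, and 0.0584 to 0.0738 without H2AK119Ub replicate 1, 2 or 4). Of 51 other developmental factors, among them the forkhead and proneural factors, 21 had both marks, 18 had H3K27me3 alone and 0 had H2AK119Ub alone, and 8 of 39 tested were higher for H3K27me3 and 0 for H2AK119Ub (8.62% and 1.70% over all genes tested). The H3K27me3 lists had a peak on 32, 37 and 47 of the 51, and the H2AK119Ub lists on 19, 21, 18 and 19. Every H3K27me3 library was above every H2AK119Ub library for this list. The median difference was 19.1 points for the homeobox factors and 28.5 points for the other factors, beside 2.35 over all genes tested.

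Of 35 ligands of the Wnt, Fgf, Bmp and Hedgehog pathways, 8 had both marks, 11 had H3K27me3 alone, 2 (Wnt6 and Wnt10a) had H2AK119Ub alone and 14 had neither. By limma, 4 of 21 tested were higher for H3K27me3 and 1, Wnt10a, for H2AK119Ub, beside 8.62% and 1.70% of all genes tested. The median difference was 26.8 points. Wnt1 was covered 100%, 39.0% and 100% by H3K27me3 and 100% in each H2AK119Ub library. Wnt6 was covered 0%, 0% and 40.4% by H3K27me3 and 10.8%, 10.9%, 18.7% and 11.0% by H2AK119Ub, which overlap.

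Replication-dependent histone genes had H2AK119Ub alone or neither mark. Of 62, none had a peak in any of the 3 H3K27me3 libraries, whereas 25, 30, 15 and 17 had one in H2AK119Ub replicates 1 to 4. H2AK119Ub alone marked 26 of them, all on chromosome 13, through 7 regions. By limma, 8 of the 26 tested were higher for H2AK119Ub (1.70% over all genes tested). All 26 passed the filter through H2AK119Ub, so the direction of these calls was fixed by it. On the same chromosome 26 further histone genes had neither mark. Of the 26 with H2AK119Ub alone, 13 also had an H3K27ac peak in at least 2 of the 3 naive H3K27ac libraries, as had 7 of the 36 with neither mark.

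Of 31 genes that code for Polycomb subunits, 7 had both marks, 0 had H3K27me3 alone, 4 had H2AK119Ub alone, among them Ezh2, Suz12 and Rybp, and 20 had neither. The shares with both marks, H3K27me3 alone and H2AK119Ub alone were 22.6%, 0% and 12.9%, beside 5.39%, 6.53% and 4.32% of all autosomal genes. None of the 11 tested passed the limma threshold (2 had an unadjusted p under 0.05), beside 8.62% (H3K27me3) and 1.70% (H2AK119Ub) of all genes tested. Cbx8, a reader subunit, was covered 5.81%, 0% and 69.2% by H3K27me3 and 84.4%, 100%, 100% and 64.4% by H2AK119Ub (limma adjusted p = 0.112). The values of its H3K27me3 replicate 3 and H2AK119Ub replicate 4 overlapped with the other mark. Ezh2 was covered 9.03% and 8.74% in H2AK119Ub replicates 1 and 2 and 0% in the other libraries. Rybp was covered 2.56% and 2.57% in H2AK119Ub replicates 1 and 3, and 3.37% in H3K27me3 replicate 3.

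Genes of the B cell itself mostly had neither mark, as had 83.8% of all autosomal genes. None of 20 B cell receptor and surface genes and none of 17 housekeeping genes had a peak of either mark in any of the 7 libraries. Of 18 B cell transcription factors, 0 had H3K27me3 regions and 2, Pou2f2 and Mef2c, had H2AK119Ub regions. These 2 are 11.1% of the list, beside 4.32% of all autosomal genes with H2AK119Ub alone. Mef2c was covered 8.25% and 6.73% in H2AK119Ub replicates 2 and 3 and 0% elsewhere. Pou2f2 was covered 8.58% and 16.7% in the same 2 libraries, and 18.4% in H3K27me3 replicate 3. Prdm1, the factor that drives plasma cell differentiation, had both marks: 7.09%, 5.99% and 20.7% for H3K27me3 and 23.3%, 40.2%, 10.6% and 19.2% for H2AK119Ub. The ranges of the marks overlapped at Prdm1.

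Most genes induced on activation had neither mark, as had 83.8% of all autosomal genes. Both marks lay on 20.0% of the immediate early genes, beside 5.39% of all autosomal genes. H2AK119Ub alone lay on 13.3% of them, beside 4.32% of all autosomal genes. It lay on 9.09% of the Toll-like receptor and NF-kB genes and 12.5% of the cytokine and chemokine genes, each time through 2 genes. These last lists had no gene with both marks or H3K27me3 alone. Of 15 immediate early genes, 10 had neither, 3 had both marks (Atf3, Nr4a2 and Nr4a3), 0 had H3K27me3 alone and 2 had H2AK119Ub alone (Fos and Jun). Atf3, a stress-induced bZIP factor, was covered 52.1%, 81.6% and 88.4% by H3K27me3 and 69.4%, 78.5%, 50.8% and 84.2% by H2AK119Ub. Fos, an AP-1 subunit, was covered 0%, 0% and 5.29% by H3K27me3 and 23.0%, 50.6%, 5.46% and 1.73% by H2AK119Ub, which overlap. Of 22 Toll-like receptor and NF-kB genes, 20 had neither mark and 2 had H2AK119Ub alone (Irf7 and Nfkbie). Of 16 cytokine and chemokine genes, 14 had neither and 2 had H2AK119Ub alone (Il10 and Il12b). Il10 was nonetheless covered 0%, 0% and 91.2% by H3K27me3, beside 69.8%, 89.6%, 0% and 89.6% by H2AK119Ub. Irf7, the interferon regulatory factor, was covered 98.3%, 92.9%, 0% and 90.9% by H2AK119Ub and 0%, 0% and 25.8% by H3K27me3 (limma adjusted p = 0.147). H2AK119Ub replicate 3 had no peak there. None of the 6, 2 and 2 genes tested in these 3 lists passed the limma threshold, and 1 of them had an unadjusted p under 0.05. Of all genes tested, 8.62% (H3K27me3) and 1.70% (H2AK119Ub) passed.

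Most genes of other blood lineages had neither mark, beside 27696 of the 33069 autosomal genes. Both marks, H3K27me3 alone and H2AK119Ub alone lay on 5.39%, 6.53% and 4.32% of all autosomal genes. In the same order the shares were 10%, 15% and 15% for T cell genes, above those of all genes. They were 5.88%, 5.88% and 0% for myeloid and NK cell genes and 7.69%, 7.69% and 0% for globin and erythroid genes. Of 20 T cell genes, 12 had neither, 2 had both marks (Gata3 and Icos), 3 had H3K27me3 alone (among them Bcl11b and Tcf7) and 3 had H2AK119Ub alone (Tbx21, Ctla4 and Cd247). Gata3, the Th2 factor, was covered 37.1%, 45.6% and 69.0% by H3K27me3 and 64.6%, 64.9%, 61.4% and 64.3% by H2AK119Ub. Tbx21 was covered 0%, 0% and 86.0% by H3K27me3 and 49.4%, 74.4%, 34.6% and 10.0% by H2AK119Ub, which overlap. Cd247, which encodes the T cell receptor zeta chain, was covered 0% by H3K27me3 and 9.93%, 17.6%, 17.7% and 14.2% by H2AK119Ub (limma adjusted p = 0.0476). Of the 8 T cell genes tested, 1 passed in each direction, beside 8.62% (H3K27me3) and 1.70% (H2AK119Ub) of all genes tested. The call at Cd247 was lost without any 1 of the H2AK119Ub libraries (limma adjusted p of 0.0675 to 0.0823). Of 17 myeloid and NK cell genes, 15 had neither mark, 1 had both and 1 had H3K27me3 alone. The last was Cebpa, the granulocyte factor, with 49.4%, 0% and 61.2%. Of 13 globin and erythroid genes, 11 had neither mark, the erythroid factor Tal1 had both and the red cell ankyrin gene Ank1 had H3K27me3 alone.

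Of 7 Cdk inhibitor genes, Cdkn2a and Cdkn2b had both marks, Cdkn1a had H2AK119Ub alone and 4 had neither. Cdkn2a, the Ink4a/Arf locus and a classical Polycomb target, was covered 20.9%, 100% and 100% by H3K27me3 and 100% in each H2AK119Ub library. Of 35 imprinted genes, 3 had both marks, 4 had H3K27me3 alone (Phlda2, Slc22a18, Dlk1 and Grb10) and 1, Kcnq1ot1, had H2AK119Ub alone. With peaks taken to be of the paternal allele, these classes say nothing of the maternal allele. Clustered protocadherin genes, which share exons, had both marks in 17 of 57 cases, through 3 regions of each mark. Olfactory receptor genes had both marks in 8, H3K27me3 alone in 15 and H2AK119Ub alone in 8 of 1100 cases, and vomeronasal receptor genes in 3, 2 and 3 of 352. None of 35 bitter taste receptor genes was in a marked class, and of 76 ribosomal protein genes 5 were. Both marks, H3K27me3 alone and H2AK119Ub alone lay on 5.39%, 6.53% and 4.32% of all autosomal genes. In the same order the shares were 8.57%, 11.4% and 2.86% for imprinted and 2.63%, 1.32% and 2.63% for ribosomal protein genes. They were 0.727%, 1.36% and 0.727% for olfactory and 0.852%, 0.568% and 0.852% for vomeronasal receptor genes. Both marks lay on 28.6% of the Cdk inhibitor and 29.8% of the protocadherin genes.

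**Figure D2:**
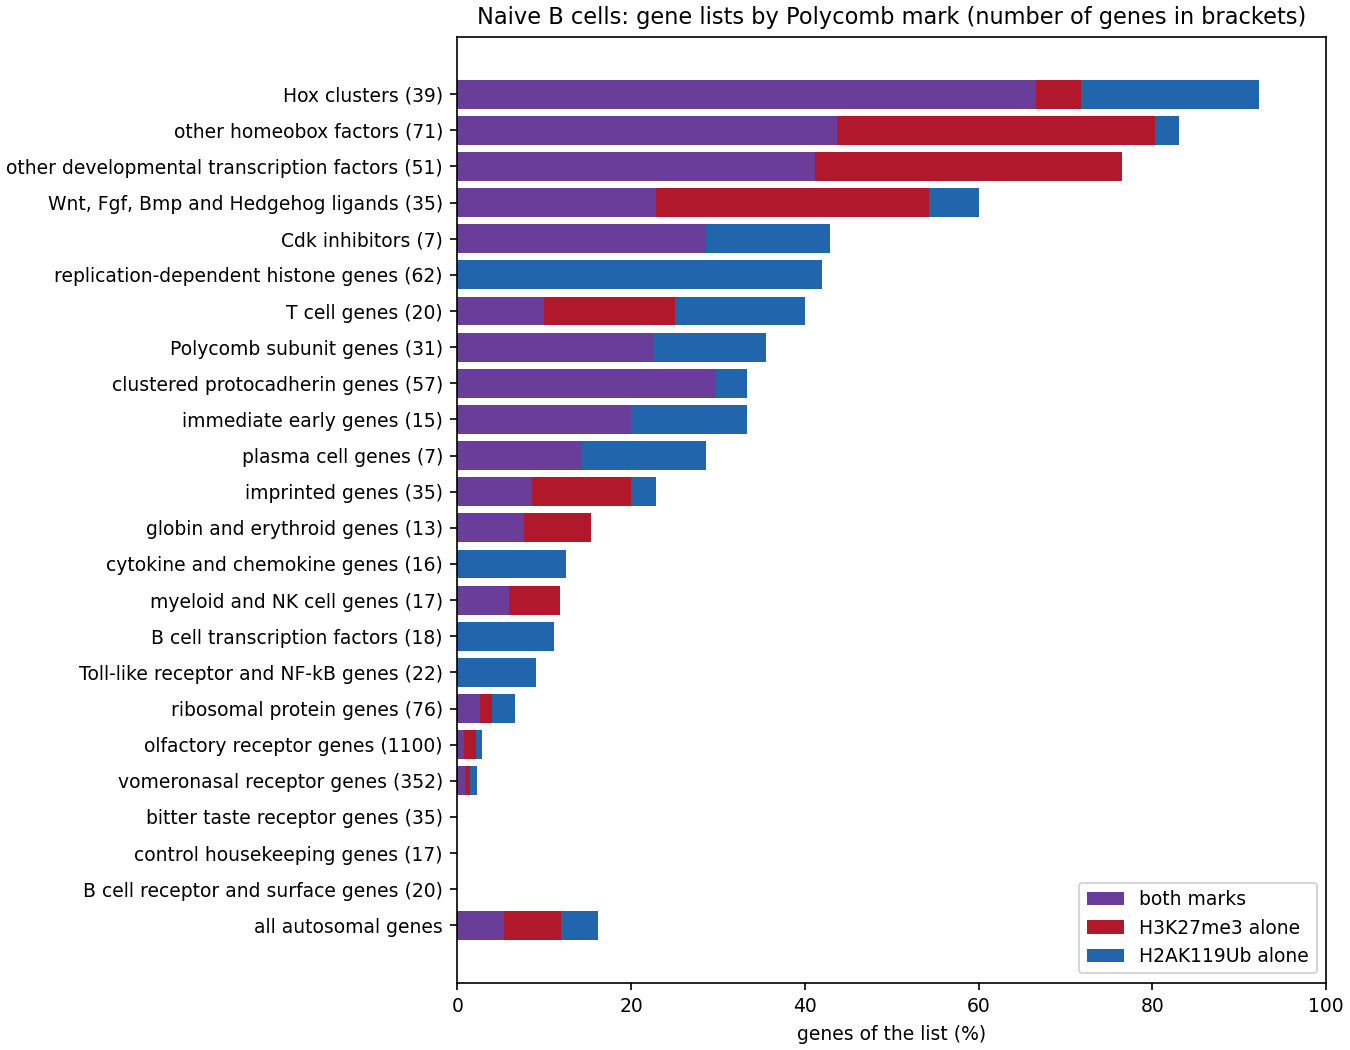
Share of each gene list (in %, number of genes in brackets) with both marks, H3K27me3 alone or H2AK119Ub alone in naive B cells, and the same over all autosomal genes (5.39%, 6.53% and 4.32%). Hox genes were mostly under both marks (26 of 39), histone genes only in the H2AK119Ub-alone class (26 of 62), and B cell surface genes in no marked class.

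Around gene starts the 2 marks were broad. Their width was not compared with that of Ring1B or Suz12. At the start itself, H3K27me3 covered 52.6% ± 17.6 (SD, n = 3) and H2AK119Ub 52.9% ± 8.78 (n = 4) of the protein-coding genes with both marks, and 10 kb upstream they still covered 27.5% and 26.6%. On genes with H3K27me3 alone the mark covered 50.3% ± 19.8 of the starts (n = 3), and H2AK119Ub 1.71% ± 2.05 (n = 4). On genes with H2AK119Ub alone, H2AK119Ub covered 40.6% ± 14.3 of the starts and 49.4% ± 15.5 of the positions 2 kb upstream (n = 4). H3K27me3 reached 8.48% ± 14.2 of these starts, of which most came from replicate 3 (24.8%), and 15.3% ± 11.3 of the positions 10 kb upstream (n = 3). Ring1B covered 36.5% of the starts with both marks, 9.16% of those with H3K27me3 alone and 39.3% of those with H2AK119Ub alone.

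**Figure D3:**
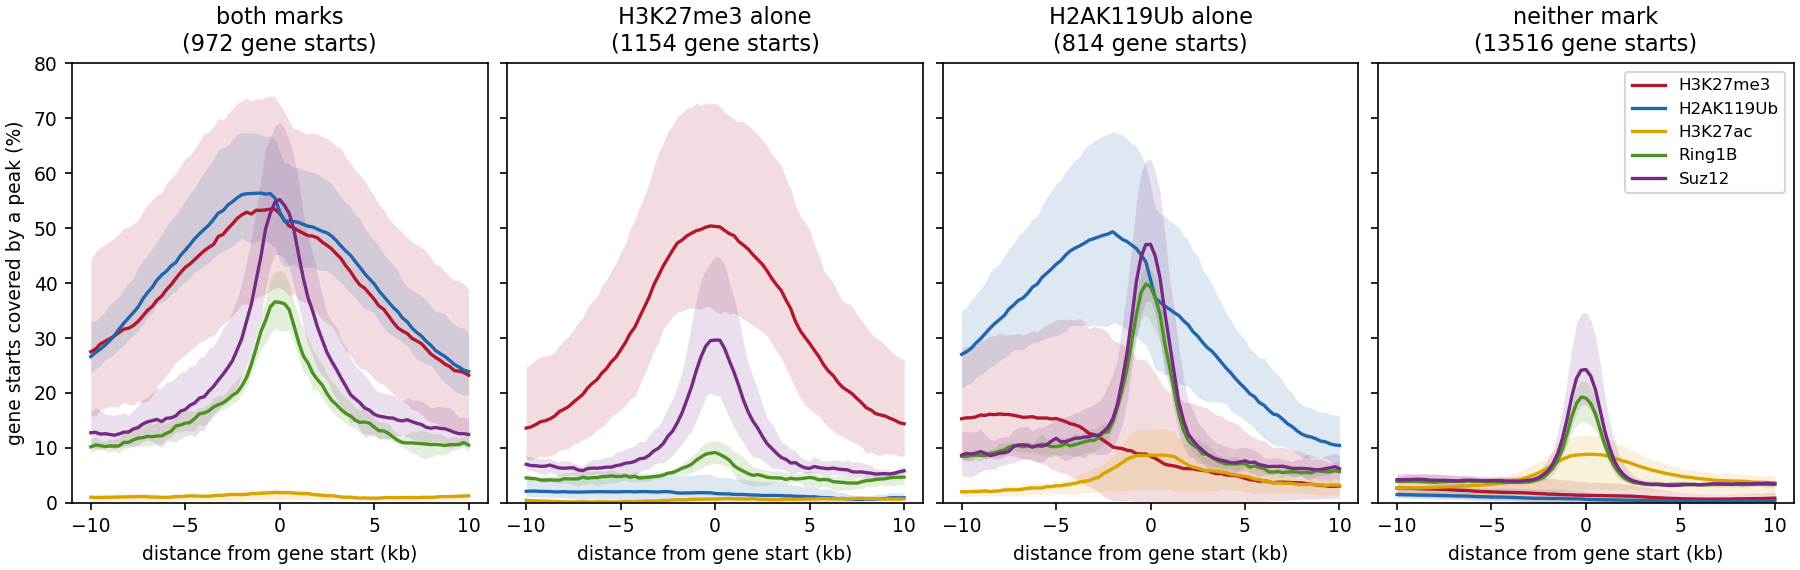
Percent of protein-coding gene starts covered by a naive peak against distance from the start (in kb, upstream negative), for the 4 classes; lines are means over the libraries of a mark and bands run from the lowest to the highest library. H3K27me3 and H2AK119Ub extend past 10 kb, and Ring1B is higher at starts with H2AK119Ub alone (39.3%) than with H3K27me3 alone (9.16%).

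Ring1B and Suz12 lists were called by the authors with a setting that keeps a fixed top share of signal, so that only the ratio between classes within a library was compared. The log2 ratio of the mean covered percent of 2 classes was tested over all libraries of a mark at 0, 12 and 24 h, by an exact sign-flip permutation test, with adjustment over 16 ratios. With 9 libraries the smallest unadjusted p of this test is 0.00391. It pools naive and stimulated libraries, so it does not test naive cells alone. Ring1B covered 15.6%, 18.4% and 15.6% of the regions of genes with both marks in the 3 naive libraries, 5.11%, 5.27% and 4.22% with H3K27me3 alone, 10.1%, 11.7% and 10.5% with H2AK119Ub alone and 4.84%, 4.83% and 4.40% with neither. In covered percent, genes with H3K27me3 alone were thus close to genes without a mark, and the classes with H2AK119Ub did not overlap with them. In gene counts the 2 classes stood further apart. A Ring1B peak in at least 2 naive libraries stood on 44.7% of the H3K27me3-alone genes and 32.6% of the unmarked genes. Their gene regions had median lengths of 24.7 and 15.9 kb, and the part of length in these values was not tested. Over the 9 Ring1B libraries, H3K27me3 alone was 0.478 times H2AK119Ub alone (log2 -1.07 ± 0.17, SD, lower in 9 of 9, exact adjusted p = 0.00781). Both marks were 2.88 times H3K27me3 alone and 1.37 times H2AK119Ub alone (each higher in 9 of 9 libraries, exact adjusted p = 0.00781).

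Suz12 was highest on genes with both marks, a class that does not require the marks to overlap within the gene region. Genes with and without such overlap were not compared. In the naive libraries it covered 29.2%, 21.8% and 18.4% of the regions with both marks, 14.3%, 8.91% and 6.99% with H3K27me3 alone, 16.5%, 11.1% and 9.17% with H2AK119Ub alone and 6.43%, 4.68% and 4.45% with neither. Over 9 libraries, both marks were 2.08 times H3K27me3 alone and 2.19 times H2AK119Ub alone (each higher in 9 of 9, exact adjusted p = 0.00781). Over all times the ratio of the single marks did not pass the threshold (1.05 times, log2 range -0.39 to 0.43, exact adjusted p = 0.465, n = 9). Their log2 ratio (H3K27me3 alone over H2AK119Ub alone) lay between -0.39 and -0.21 in the naive libraries and between 0.38 and 0.43 after 24 h, and it differed between the times (exact permutation adjusted p = 0.026, n = 3 for each time).

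Acetylation was about an order of magnitude lower on genes with H3K27me3 alone than on genes with H2AK119Ub alone. H3K27ac covered 1.55%, 5.41% and 6.35% of the regions with H2AK119Ub alone in the 3 naive libraries, and 0.114%, 0.531% and 0.569% of those with H3K27me3 alone. The regions with both marks were covered 0.234%, 1.26% and 1.27%, and those with neither 1.39%, 5.02% and 5.31%. In each library H2AK119Ub alone was slightly above unmarked genes, and H3K27me3 alone was the lowest class. Over the 9 H3K27ac libraries, H3K27me3 alone was 0.0964 times H2AK119Ub alone (log2 -3.37 ± 0.15, SD, lower in 9 of 9, exact adjusted p = 0.00781). Both marks were 2.59 times H3K27me3 alone and 0.250 times H2AK119Ub alone (9 of 9 libraries each, exact adjusted p = 0.00781).

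In gene counts, 249 of 1428 genes (17.4%) with H2AK119Ub alone had an H3K27ac peak in at least 2 naive libraries, against 75 of 2161 (3.47%) with H3K27me3 alone, 133 of 1784 (7.46%) with both and 12.9% with neither. H2-D1 was covered 99.1% on average by H3K27ac and 91.0% by H2AK119Ub in naive cells. H4c9 had 59.1% and 81.4%. Whether the marks lie on the same chromatin fibres or in different cells was not tested.

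H3K9me3, the mark of constitutive heterochromatin, was nearly absent from the marked classes. It covered 0.041% ± 0.027 of the regions with both marks, 0.0314% ± 0.0233 with H3K27me3 alone, 0.071% ± 0.0475 with H2AK119Ub alone and 0.712% ± 0.473 with neither (SD, n = 4 naive libraries). H3K27me3 alone was 0.788 times H2AK119Ub alone over 12 libraries (exact adjusted p = 0.0319), but this ratio turned without H3K27me3 replicate 1 or 3 in making the classes, to log2 values of 0.35 and 0.10.

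**Figure D4:**
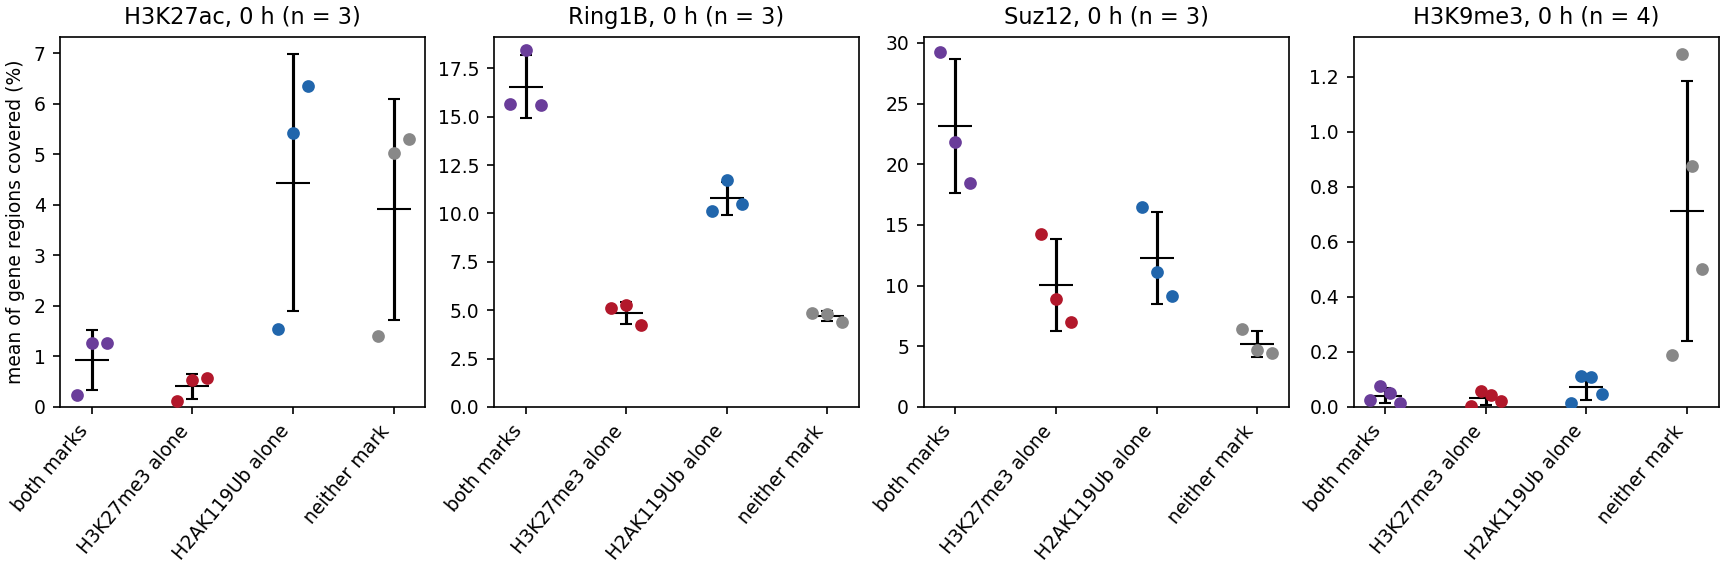
Mean percent of gene regions covered by peaks of H3K27ac, Ring1B, Suz12 and H3K9me3 in naive cells, for the 4 classes; points are libraries, horizontal bars means and error bars SD, and each panel has its own scale. H3K27ac and Ring1B were lower on genes with H3K27me3 alone than on genes with H2AK119Ub alone in all 3 naive libraries.

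Libraries from stimulated cells, which were not used for the classes, were read to see whether the single-mark classes stayed single. H2AK119Ub covered 0.386%, 3.12%, 0.569% and 0.532% of the regions of H3K27me3-alone genes at 0 h, where the class was defined to lack it, then 24.6%, 30.4% and 21.4% at 12 h and 36.6%, 23.7%, 23.8%, 15.3% and 32.3% at 24 h. Genes with neither mark had 6.01%, 8.23% and 4.67% at 12 h and 15.2%, 7.54%, 7.11%, 4.01% and 11.8% at 24 h. Within each of the 8 stimulated libraries H3K27me3-alone genes were above unmarked genes, by 3.41 times on average (exact adjusted p = 0.0125). A peak of H2AK119Ub stood on 71.1% ± 6.40 of the H3K27me3-alone genes at 12 h (SD, n = 3), on 86.8% ± 4.73 of the H2AK119Ub-alone genes and on 19.7% ± 4.49 of the unmarked genes.

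H3K27me3 on H2AK119Ub-alone genes was also above unmarked genes in stimulated cells. At 0 h, where the class was defined to lack it, H3K27me3 covered 0.223%, 0.140% and 14.5% of the regions of H2AK119Ub-alone genes. Genes with neither mark had 0.210%, 0.0286% and 2.26% at 0 h. H3K27me3 covered 13.6%, 9.26% and 10.3% of the regions of H2AK119Ub-alone genes at 12 h and 25.3%, 23.9%, 26.4% and 32.5% at 24 h. Naive replicate 3, the longest naive list, was thus already above the 12 h values. Genes with neither mark had between 2.12% and 4.11% after 12 h and between 7.50% and 12.8% after 24 h. The ratio of H2AK119Ub-alone to unmarked genes was 3.21 over 7 libraries (higher in 7 of 7, exact adjusted p = 0.0208). At 24 h an H3K27me3 peak stood on 74.8% ± 5.14 of the H2AK119Ub-alone genes and on 24.8% ± 4.04 of the unmarked genes (SD, n = 4).

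Genes with both marks stayed above genes with a single mark in the libraries of that mark. In H2AK119Ub libraries of stimulated cells, genes with both marks were covered 1.46 times as much as H2AK119Ub-alone genes (8 of 8 libraries, exact adjusted p = 0.0125). In H3K27me3 libraries, genes with both marks were covered 1.08 times as much as H3K27me3-alone genes (7 of 7, exact adjusted p = 0.0208). With bases in place of genes that ratio did not pass the threshold (log2 0.03, exact adjusted p = 0.135). Covered length rose in the stimulated lists of both marks, from between 27.7 and 94.4 Mb at 0 h to between 59.1 and 310.5 Mb, and the lowest peak maximum kept in the stimulated H2AK119Ub lists was 4 to 6 units. The part of these list properties in the gain on single-mark genes was not tested.

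Single genes varied within this picture. Pyy, without H2AK119Ub at 0 h, had a mean coverage of 100% at 12 h and 87.8% at 24 h. Nkx2-9 stayed at 0% at both times, while Atoh1 had 0% at 12 h and 52.2% at 24 h. Among H2AK119Ub-alone genes, H2bc14 had 0% H3K27me3 at all times, while Wnt10a went from 3.55% at 0 h to 17.8% and 87.9%. At Gadd45b H3K27me3 was 17.1%, 4.07% and 0.245% at 0, 12 and 24 h, with H2AK119Ub at 96.7% at each time and H3K27ac at 0%, 93.7% and 93.0%. These are group means, given without a test.

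**Figure D5:**
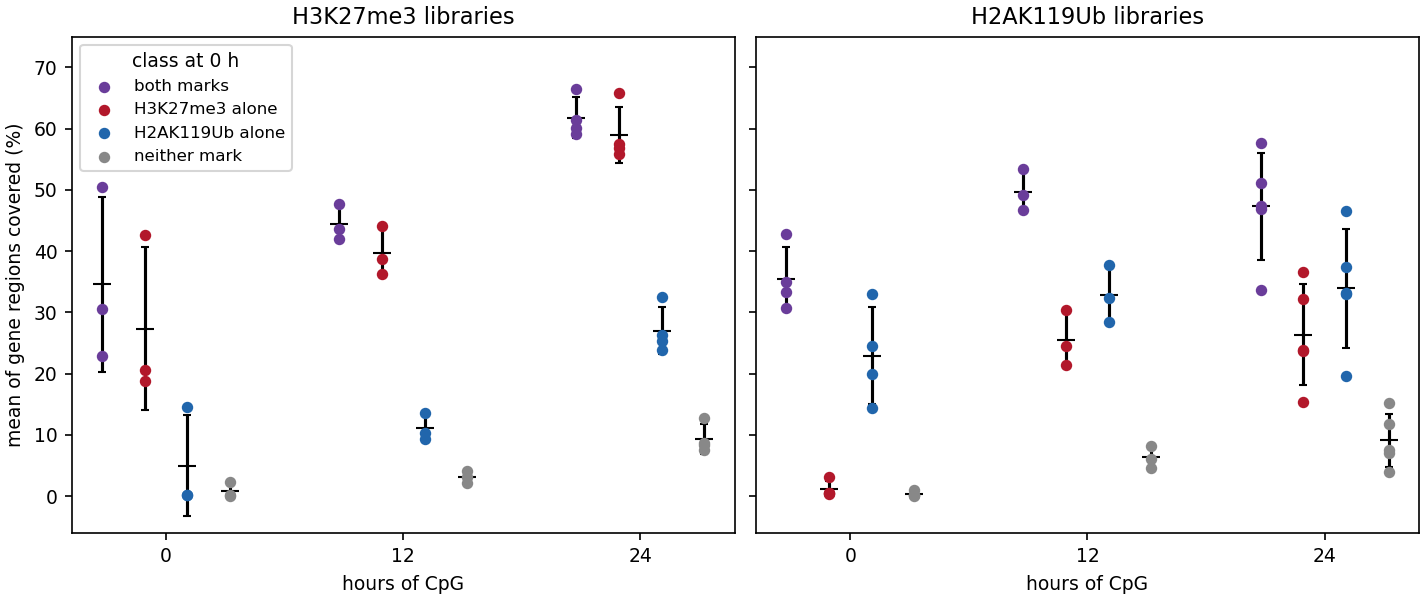
Mean percent of gene regions covered by H3K27me3 (left) and H2AK119Ub (right) at 0, 12 and 24 h of CpG, for the classes fixed at 0 h; points are libraries, horizontal bars means and error bars SD. On H3K27me3-alone genes H2AK119Ub lay between 0.386% and 3.12% at 0 h and between 15.3% and 36.6% in stimulated cells, against 4.01% to 15.2% on genes with neither mark.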

How the data were processed

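Peaks of CUT&RUN libraries were read from 1 list per sample, so replicates were not pooled. Per the labels, the build is mm10. Trimmomatic 0.32, deepTools 3.5.1, Bowtie2 2.3.4.1 and Picard appear in the submitters' processing notes. List names carry SEACR and Cast, taken here as peaks of reads assigned to the Cast allele. No label or file name gives SEACR's version, the allele rule or the depth. The total and highest signal (coverage) of each peak, deposited by the authors, were used to rank peaks within a list and to describe the lowest peak maximum of each list. Other columns used are peak starts and ends. The 3 IgG samples were not analysed here.

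Genes are the autosomal protein-coding and lncRNA entries of RefSeq (GRCm38.p6), 20661 and 12408, each with 2 kb on both sides. The covered percent per gene was computed in Python 3.11.15 with numpy 2.4.6 and compared with limma 3.58.1 (trend and robust, R 4.3.3), for genes with a peak in at least 2 of 7 libraries, with Benjamini-Hochberg adjustment. Ratios of classes had 0.01 percentage points added to each mean. Promoter windows of RefSeq matched 25747 genes, the first entry of each gene by position. The scripts were tested on simulated data. P-values measure the spread between these libraries.

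Named genes are the 12 with the largest mean difference in each direction among called protein-coding genes whose groups do not overlap (no Gm or Rik symbols), the 8 protein-coding genes with both marks and the highest lowest coverage, and, of each list, up to 4 members with the highest coverage plus those in counts of 5 or fewer. Some of these genes are not reported here. Others were chosen after their values were seen. The members and lists were chosen with earlier results of these data known. The symbol pattern of the histone list was replaced after the annotation was seen, since the first matched no symbol. Alternatives were each library left out, equal peak numbers, the stronger part of each list, other scalings, filters and gene windows.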

Additional observations from a re-analysis of the deposited data

Results flagged for a closer look

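In groups of 4 or 5 libraries, a library was singled out when its gap to the nearest other value, as a share of the group's range, passed Dixon's critical value, which chance does in about 1 of 20 groups. Mean H2AK119Ub coverage in naive cells had such a library on genes with H3K27me3 alone (replicate 2 at 3.12%, the others 0.386% to 0.569%, gap share 0.933) and on genes with neither mark (replicate 2 at 0.916%, the others 0.0676% to 0.132%, gap share 0.924). At 24 h, H3K27me3 replicate 4 covered 65.7% of the H3K27me3-alone regions and the others 55.8% to 57.5% (gap share 0.834).

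At single genes, the naive H2AK119Ub libraries were singled out as follows. The gap share was 1, with 3 equal libraries and 1 apart, at Sst, H3c10, Gadd45b, Lbx2, Gfy, Foxd1, Cdkn2b, Phlda2, Slc22a18, Vmn1r35 and Vmn1r33. Phlda2 was covered 100% in replicate 1 and 0% in the others. The gap share was 0.871 at H2-D1, 0.841 at Hoxd11, 0.932 at Nkx2-6, 0.985 at Fgf15, 0.975 at Wnt6, 0.925 at Irf7, 0.837 at Gata3, 0.974 at Tal1, 0.832 at Mest, 0.929 at Pcdhgc3, 0.937 at Rpl17 and 0.844 at Rpl23a. Replicate 3 was the lowest at Fgf15 and Irf7 (0% in both, with the others at 81.4% to 82.7% and 90.9% to 98.3%). Many genes were screened, and covered percents end at 0 and 100, where ties are common.

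Ratios of classes differed between 0, 12 and 24 h in 4 of 12 cases by an exact permutation test of the time labels with adjustment over the 12. For Suz12, the log2 ratio of H3K27me3 alone over H2AK119Ub alone averaged -0.31, 0.13 and 0.41 (adjusted p = 0.026), and that of both marks over H2AK119Ub alone 0.94, 1.18 and 1.29 (adjusted p = 0.0321). For Ring1B, both marks over H2AK119Ub alone averaged 0.62, 0.32 and 0.44 (adjusted p = 0.0321). For H3K9me3, H3K27me3 alone over H2AK119Ub alone averaged -0.93, -0.09 and -0.01 (adjusted p = 0.026), at coverage under 0.31% in these classes.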

How the results depend on the processing

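Depth is unknown and list length differs between libraries, so single-mark classes rest on thresholds set by the authors' calls. Of the ratios between classes, those of H3K27ac and Ring1B and both marks over either single mark for Suz12 kept direction and call under each alternative run.

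The length difference between marks (log2, main value 0.25) was -0.21 with equal peak numbers, and between -0.29 and 0.54 without 1 library. The within-mark excess of the Jaccard index was 0.155 to 0.233 without 1 library, with p of 0.0667 or 0.1, the smallest each design allows. Genes with both marks were 1079 with equal peak numbers, 978 with the stronger part of each list and 732 when every library had to cover the base; H3K27me3 alone gave 1040, 1407 and 1171, and H2AK119Ub alone 896 and 774 in the last 2. Without 1 library these counts ran from 1086 to 1702, 830 to 2450 and 916 to 2126. Limma called 496 and 98 genes (H3K27me3 and H2AK119Ub higher), 320 for H3K27me3 with the stronger part, 277 for H2AK119Ub with equal peak numbers, 162 for H2AK119Ub on the arcsine scale, and 160 and 44 with no filter. Without 1 library it called 62 to 1356 and 22 to 396. Of 25 named calls none turned direction; 7 were lost without some library and 13 under some other setting beside the block.

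Same-numbered libraries of the marks did not deviate together (r = 0.02, -0.04 and -0.10 over genes), so the numbers were not taken to pair them. With the replicate block limma called 0 and 0 genes (806 at an unadjusted p under 0.05), and 0 and 0 with the block and division by coverage (1217 unadjusted).

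For H3K9me3, log2 of both marks over H3K27me3 alone was -0.46 with every library required, -0.21 with equal peak numbers and -0.069 with gene regions of 10 to 50 kb. Both over H2AK119Ub alone was -1.21, -0.88 and 0.65 in these settings and -2.09 with bases. H3K27me3 alone over H2AK119Ub alone was 0.72 with regions of 10 to 50 kb. Without 1 library these ran from -0.23 to 0.32, -0.57 to 0.18 and -0.65 to 0.35. Suz12 on H3K27me3 alone over H2AK119Ub alone was -0.048 with every library required and 0.32 with equal peak numbers, and -0.069 to 0.18 without 1 library. Stimulated H3K27me3 on both marks over H3K27me3 alone was 0.032 with bases. The cause of these changes was not tested.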
